A study of Mus musculus with 6 samples.

Results

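The metallothionein genes Mt1, Mt2, Mt3 and Mt4 were followed across mouse embryonic stem cells with and without 3 of their linker histones, together with Mtf1, the transcription factor that switches metallothioneins on, and Slc30a1, a zinc exporter under the same factor. The probe sets were those that the platform annotation lists with these 6 gene symbols, which gave 6 of the 12488 probe sets on the array, 1 for each gene, and no probe set listed a member together with another gene. The gene set was chosen by measured values, with the differences between null and wild-type arrays already known. Values from that contrast, and from each null line against wild type, are therefore given as a description. The arrays hold total RNA of exponentially growing cells of 3 lines, with 2 arrays each, numbered experiment 1 and experiment 2 in the labels. They are wild-type cells, a first H1c, H1d and H1e triple-null line (line 1) and a second one (line 2). The labels give no strain, no treatment and no culture conditions, and do not say whether the duplicates are separate cultures. The p-values therefore cover the spread between arrays, which may be technical.

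Metallothioneins are small, cysteine-rich proteins that bind zinc and copper and, on exposure, cadmium. Free zinc activates MTF1, which binds metal response elements before the metallothionein genes and the Slc30a1 gene, so that binding and export of zinc rise when zinc does. Glucocorticoids and oxidative stress also raise Mt1 and Mt2. Mt1 and Mt2 are used in most cells, Mt3 is known chiefly from the brain, and Mt4 from stratified squamous epithelium. In the mouse the metallothionein genes lie side by side on chromosome 8, and linker histones, which sit on nucleosomes and on the DNA between them, are part of the chromatin that covers them.

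The 250 bases before an annotated transcript start of each gene of the cluster were searched, because these neighbours differed among themselves in signal. They come from a RefSeq promoter table (build GRCm38.p6), which had 1 window for each of the 6 genes. For Mt2, Mt3, Mt4 and Mtf1 that start is also the start of the annotated gene. For Mt1 and Slc30a1 it lies 206 and 84 bases inside the annotated gene, so part of their windows is gene and not upstream sequence, and of Mt1 only the 30 bases that hold its match are shown. Sequences read 5′ to 3′. Capitals mark the core of the metal response element, searched as TGCACNC or TGCGCNC on both strands, where N is any base. A match on the minus strand appears as its reverse complement.
Mt1, chr8:94179059-94179088, plus strand: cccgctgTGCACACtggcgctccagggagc
Mt2, chr8:94172368-94172617, plus strand: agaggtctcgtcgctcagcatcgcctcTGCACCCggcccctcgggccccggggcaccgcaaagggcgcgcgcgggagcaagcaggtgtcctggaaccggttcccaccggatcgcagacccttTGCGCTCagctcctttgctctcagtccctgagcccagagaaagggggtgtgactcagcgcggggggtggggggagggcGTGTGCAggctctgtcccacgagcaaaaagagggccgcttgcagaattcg
Mt3, chr8:94152357-94152606, plus strand: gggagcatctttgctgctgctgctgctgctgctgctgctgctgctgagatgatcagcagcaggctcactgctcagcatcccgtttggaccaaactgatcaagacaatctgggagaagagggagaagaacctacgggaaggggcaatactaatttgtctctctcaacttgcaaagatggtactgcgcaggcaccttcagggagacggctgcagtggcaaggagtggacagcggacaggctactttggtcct
Mt4, chr8:94136954-94137203, plus strand: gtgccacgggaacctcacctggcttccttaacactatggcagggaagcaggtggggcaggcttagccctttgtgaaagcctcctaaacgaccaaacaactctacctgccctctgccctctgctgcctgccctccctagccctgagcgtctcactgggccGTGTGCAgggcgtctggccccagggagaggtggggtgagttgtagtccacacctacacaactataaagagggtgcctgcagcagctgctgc

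Mt2 had 3 separate matches to the metal response core in its window, Mt1 and Mt4 had 1 each, Slc30a1 had 1, and the windows of Mt3 and Mtf1 held none. Of 32851 such windows, 21.4% held at least 1 match and 1.26% at least 3. The choice of start bounds what was searched, most of all for Mt1, where 2 further matches reached past the listed start. The count of 1 for Mt1 is therefore no measure of its promoter. With the 50 bases after the start included, Mt1 had 3 matches, Mt2 had 4, Slc30a1 had 2, and Mt3 and Mt4 had 1 each, against 1.97% of all windows with 3 or more and 0.517% with 4 or more. The letters TGACNNNGC, the antioxidant response element that NRF2 binds, occurred 1 time in the Mt2 window and 1 time in the Slc30a1 window, and in 10.2% of all windows. Mt4 alone of the 6 held TATAAA in its window, which 12.4% of all windows hold. TGACNNNGC and TATAAA were counted only before the listed start, and sequence past it was not searched for them. That Mt1 had neither therefore holds for this window alone and does not show that its promoter lacks them. The matches do not overlap each other. The windows of the 6 genes differed in CpG content. The ratio of observed to expected CpG was 0.80 for Mt1, 0.737 for Mt2, 0.793 for Mtf1 and 0.79 for Slc30a1, but 0.271 for Mt3 and 0.22 for Mt4, against a median of 0.373 over all windows. A match is a description of letters and not evidence of a bound site.

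**Figure D1:**
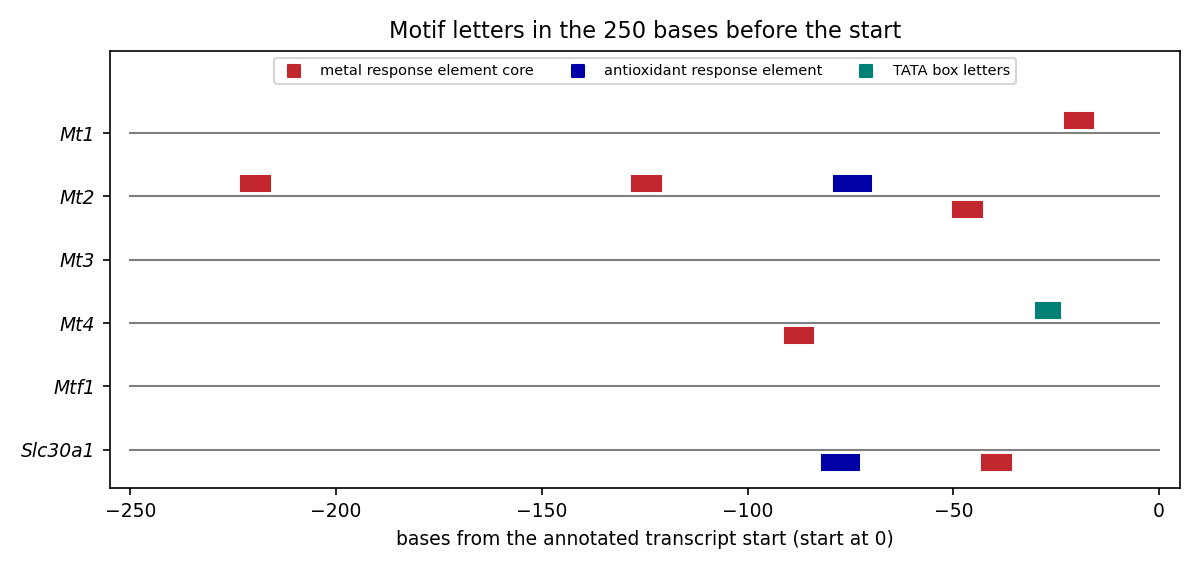
Positions of 3 motifs in the 250 bases before the transcript start that the promoter table gives for each gene, with distance from that start in bases on the x axis. For Mt1 and Slc30a1 it lies 206 and 84 bases inside the annotated gene. Boxes above a line are on the plus strand and boxes below it on the minus strand. Mt2 carries 3 metal response cores, whereas Mt3 and Mtf1 carry none in these windows.

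The array values were intensities on a linear scale. Median signal per array lay between 34.1 and 39.5 units, and the highest of 19 bacterial and yeast control probe sets, taken as background, between 9.1 and 17.2. Of the targeted genes, H1f2 (H1c) measured 70 and 68.2 on the wild-type arrays, 11.1 and 11.5 in line 1, and 13 and 14.4 in line 2. H1f3 and H1f4 (H1d and H1e) were at or below background on all 6 arrays and check nothing. Embryonic stem cell markers were present, with Pou5f1 at 1532 ± 6.43 (SD, n = 2) in wild-type and 1666 ± 121 (SD, n = 4) in null cells, and 11 of 12 such markers were above background on every array. Summed over the 12, their level ranged from 8004 to 8111 units in wild type and from 8495 to 9412 across the null arrays. These ranges do not overlap. Of 11 tested, 1 (Fbxo15) was called higher in the null average, where 0.416% of all tested probe sets were called. All 4 null arrays were above both wild-type arrays for 5 of the 11, and for 11.0% of all tested probe sets. Of 11 markers of fibroblasts or feeder cells, none of 5 tested was called. Summed over these 11, the level ranged from 1063 to 1107 in wild type and from 817 to 939 across the null arrays. The latter difference came from Acta2, the smooth muscle actin and brightest of them, at 561 ± 68.1 (SD, n = 2) in wild-type and 345 ± 60.6 (SD, n = 4) in null cells. Without it, the other 10 summed to between 498 and 550 in wild type and between 518 and 543 across the null arrays, which overlap. The part of these markers in the differences of the metallothionein genes was not tested.

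Mt1 and Mt2, the metallothioneins of most cell types, were among the brightest probe sets of the array and gave more signal in the null cells. Mt1 (93573_at) measured 1005 and 903 units on the wild-type arrays, 1410 and 1236 in line 1, and 1450 and 1249 in line 2. All 4 null arrays lay above both wild-type arrays, and the null lines overlapped each other. The means were 954 ± 71.8 (SD, n = 2) in wild-type and 1336 ± 110 (SD, n = 4 arrays of 2 lines) in null cells, 1.40-fold.

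Mt2 (101561_at) measured 2862 and 2592 units on the wild-type arrays, 3675 and 3895 in line 1, and 3770 and 3599 in line 2. Again the 4 null arrays stood above the wild-type arrays without overlap, and they lay close to each other. The means were 2727 ± 191 (SD, n = 2) in wild-type and 3735 ± 128 (SD, n = 4) in null cells, 1.37-fold. In bulk RNA, a different share of cells that make a transcript and a different amount of it per cell cannot be told apart. By mean signal, Mt1 ranked 194 and Mt2 ranked 43 among 12422 probe sets.

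On the log2(value + 2) scale used for all differences, Mt1 differed between the null average and wild type by 0.48 ± 0.13 (SE) and Mt2 by 0.45 ± 0.11 (SE). By line, the differences from wild type were 0.47 for Mt1 and 0.47 for Mt2 in line 1, and 0.50 and 0.44 in line 2. Neither gene was called in any of these 3 contrasts. The lines share the wild-type arrays, so their values are not independent of each other. Of all tested probe sets, 97.2% had a smaller signed difference in the null average than Mt1 and 96.8% a smaller one than Mt2. As the set was chosen on this contrast, high shares follow from the choice and are given for reference.

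**Figure D2:**
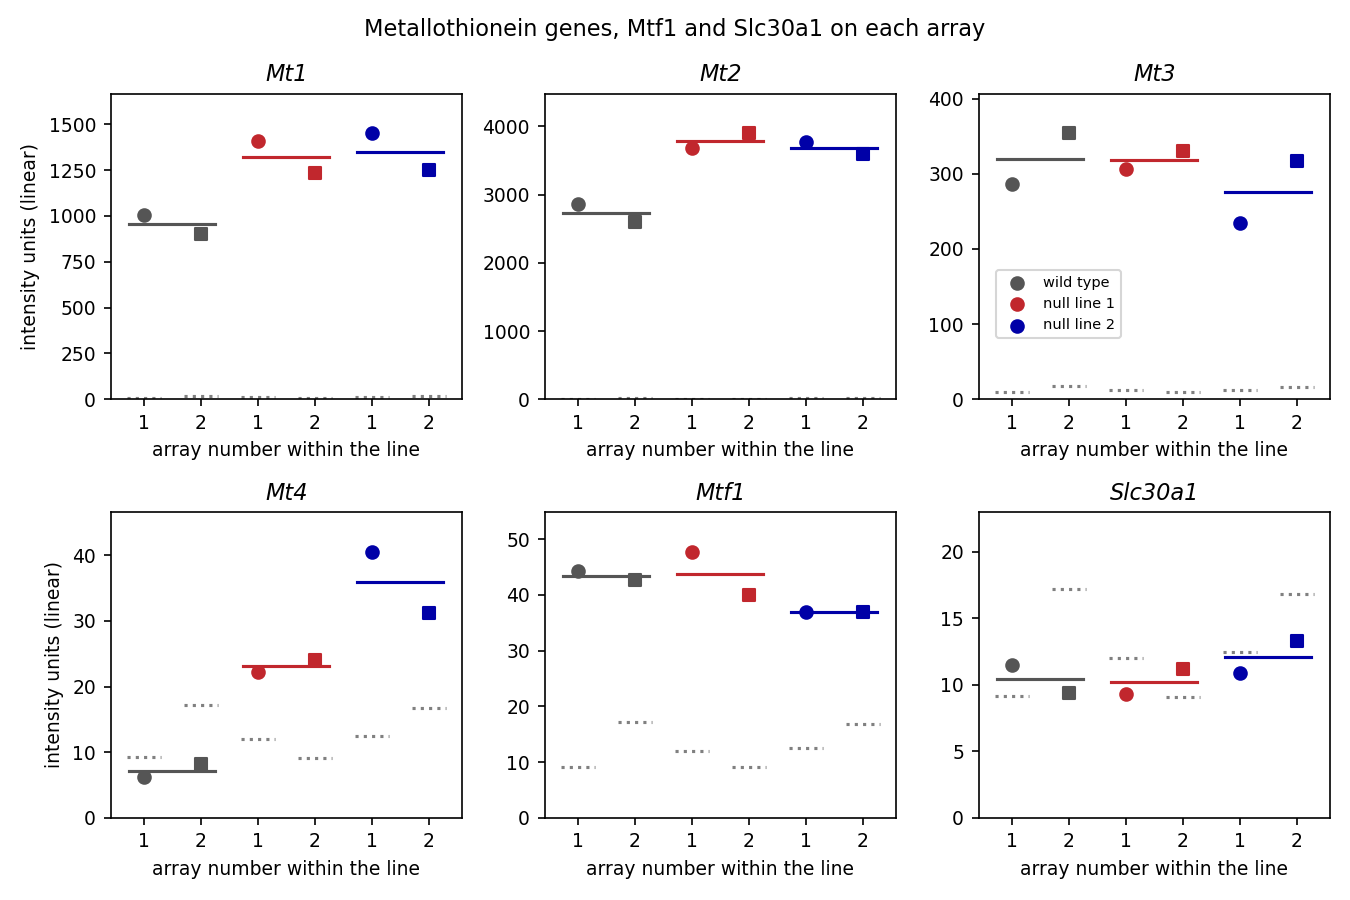
Intensity in linear units of each probe set on each array, by line, with the number of the array within its line on the x axis. Circles are experiment 1, squares experiment 2, solid bars are line means, and dotted bars are each array's highest background control. Mt1, Mt2 and Mt4 have all 4 null arrays above both wild-type arrays, whereas Mt3, Mtf1 and Slc30a1 overlap.

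Mt4, the metallothionein of squamous epithelium, was at background in wild-type cells and above it on every null array. Its probe set (102989_at) measured 6.2 and 8.2 units on the wild-type arrays, where the highest background controls were 9.2 and 17.2. It measured 22.2 and 24 in line 1, where those controls were 12 and 9.1, and 40.5 and 31.2 in line 2, where they were 12.5 and 16.8. No null array overlapped wild type, and the arrays of line 2 stood above those of line 1. Means were 7.2 ± 1.41 (SD, n = 2) in wild-type, 23.1 ± 1.27 (SD, n = 2) in line 1 and 35.9 ± 6.58 (SD, n = 2) in line 2.

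Because wild-type Mt4 was not above background, its change has only a lower bound. It is at least 2.28-fold in the null average, at least 1.83-fold in line 1 and at least 2.83-fold in line 2, taken as the geometric mean of the null arrays over that of each wild-type array's highest background control. The null level remained low, with a mean of 29.5 ± 8.32 (SD, n = 4), and 3 of the 4 null arrays were below their array's median signal, 40.5 in line 2 being the exception. Mt4 entered the test through the null arrays alone, since its mean over all arrays was 22.05 against a filter of 20.9, and a probe set that enters in this way had to differ.

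Of the 5 member probe sets past the filter, Mt4 was called in the null average at a limma adjusted p threshold of 0.05, where 31 of 7453 probe sets (0.416%) were called. It was also called in line 2 against wild type (19 probe sets, 0.255%) and not in line 1 against wild type (10 probe sets, 0.134%). The other 4 were called in none of the 3. Mt1, Mt2 and Mt4 had all 4 null arrays above both wild-type arrays, as did 11.0% of all tested probe sets, and no member had all 4 below, as did 12.0%. As the set was chosen on this contrast, these shares are given for reference. The call of Mt4 in the null average ended without either wild-type array and without either array of line 1. Its log2 difference there was 1.59, 1.90, 1.77 and 1.72, against 1.75 with all arrays. The call also ended without the filter, and with the experiment number added to the model (limma adjusted p = 0.0549). For line 2 against wild type it ended without the filter and without any 1 of the 6 arrays (log2 difference 2.04, between 1.86 and 2.22 with 1 array left out). These log2 differences depend on the pseudocount, since wild type was at background, and that of the null average was 0.95 with a pseudocount of 16.

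All 6 members are read by probe sets whose suffix, _at, marks them as designed for a single transcript. On the wild-type arrays, the Mt4 probe set was at background while the Mt1 and Mt2 probe sets gave means of 954 and 2727. Over all 6 arrays, Pearson's r of the log2 values of Mt4 was 0.891 with Mt1 and 0.894 with Mt2. Whether the metallothionein probe sets also pick up each other's transcripts was not tested, as probe sequences were not used here. Markers of squamous epithelium were examined because Mt4 is known from that tissue. Of 9 such markers on the array, Krt5, Krt14, Krt15 and Ivl, which include the basal keratins and involucrin, were at or below background on all 6 arrays. Another 4, Krt10, Krt6a, Trp63 and Sprr1a, were above it on all 6, and Krt1 on 5. Their groups overlapped, with means in wild type and in the null lines of 19.9 and 18.8 for Krt10, 54.1 and 58.5 for Krt6a, 15.4 and 18.7 for Trp63, and 22.6 and 21.4 for Krt1. Summed over the 9, their level ranged from 152 to 182 units in wild type and from 115 to 206 across the null arrays. None of the 3 tested was called, and Sprr1a averaged 44.4 units in wild type against 32.5 in the null lines (limma adjusted p = 0.566).

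Mt3, first described as a growth inhibitory factor of the brain, gave a moderate signal on every array with no separation of the groups. Its probe set (95340_at) measured 287 and 354 units on the wild-type arrays, 306 and 330 in line 1, and 234 and 317 in line 2. All 4 null arrays were below the higher wild-type array, and 3 of them above the lower one. The means were 320 ± 47.5 (SD, n = 2) in wild-type and 297 ± 42.8 (SD, n = 4) in null cells, a log2 difference of -0.11 ± 0.17 (SE) whose sign turned without the second wild-type array (0.04). Of 7 markers of brain cells on the array, Aqp4, Map2, Snap25 and Syt1 were at or below background on all arrays, and Gfap averaged 26.7 units in wild type against 31.8 in the null lines. Slc1a2 was above background on 4 arrays. Summed over the 7, their level ranged from 571 to 755 units in wild type and from 702 to 865 across the null arrays. Most of it came from the tubulin gene Tubb3, at 602 and 714. The suffix of that probe set, _f_at, marks sequence shared within a gene family, so its signal may include other tubulins. Another Tubb3 probe set with this suffix averaged 50 units in wild type and 79.1 in the null lines. The sum is therefore weak evidence on brain cells.

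Mtf1, the metal-responsive factor itself, differed little between the groups. Its probe set (100018_at) measured 44.2 and 42.6 units on the wild-type arrays, 47.7 and 39.9 in line 1, and 36.9 on both arrays of line 2. Line 2 lay below wild type and line 1 spanned it. The log2 difference was -0.11 ± 0.12 (SE) in the null average, 0.01 in line 1 and -0.22 in line 2. Slc30a1, which moves zinc out of the cell, was near background. Its probe set (93938_at) measured 11.5 and 9.4 units on the wild-type arrays, 9.3 and 11.2 in line 1, and 10.9 and 13.3 in line 2, and exceeded the highest background control on 1 wild-type array and 1 line 1 array. It fell under the filter. Near background its groups overlapped, and whether they differ was not tested.

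The null lines were compared with each other, a difference that did not choose the set, although the null arrays also enter the differences that did. The wild-type arrays enter this test only through the filter and the shared estimate of the spread. None of the 5 tested members was called, against 2 of 7453 probe sets (0.0268%), which fell to 0 without any 1 of the 6 arrays (limma, between 339 and 933 at an unadjusted p under 0.05). Mt1 differed between line 1 and line 2 by a log2 value of -0.03 ± 0.15 (SE, limma adjusted p = 0.97), with a 95% confidence interval from -0.39 to 0.33. For Mt2 the difference was 0.04 ± 0.13 (SE, limma adjusted p = 0.948), with an interval from -0.27 to 0.35. These intervals include no difference and also differences of up to 1.31-fold for Mt1 and 1.27-fold for Mt2, so equal levels are not shown.

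Mt4 was lower in line 1 than in line 2 by values, 23.1 against 35.9 units, a log2 difference of -0.58 ± 0.18 (SE). Its unadjusted limma p was 0.0174, and 7.55% of all tested probe sets had an unadjusted p under 0.05 here. It did not pass after adjustment (adjusted p = 0.627). Its 2 arrays of each line did not overlap, which held for 39.1% of all tested probe sets. Mt3 and Mtf1 were higher in line 1 by log2 values of 0.22 ± 0.19 (SE) and 0.23 ± 0.14 (SE), and neither passed (limma adjusted p = 0.779 and 0.688).

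The labels number the duplicate arrays of each line as experiment 1 and experiment 2, which allows a further comparison that did not choose the set. Mt1 was lower on the experiment 2 array in all 3 lines, from 1005 to 903 units in wild type, from 1410 to 1236 in line 1 and from 1450 to 1249 in line 2. The log2 difference was -0.19 ± 0.10 (SE, limma adjusted p = 0.805). Mt3 went the other way in all 3 lines, from 287 to 354, from 306 to 330 and from 234 to 317 units, with a log2 difference of 0.28 ± 0.12 (SE, limma adjusted p = 0.736). A same direction in all 3 lines held for 28.6% of all tested probe sets. Mt2 and Mtf1 did not move in 1 direction with the number across the lines, and their log2 differences were -0.04 ± 0.11 and -0.10 ± 0.11 (SE). Mt4 had a log2 difference of 0.02 ± 0.16 (SE), with a sign that turned under another pseudocount and under quantile normalization. With limma, 0 of 7453 probe sets (0%) passed after adjustment in this contrast, while 505 (6.78%) had an unadjusted p under 0.05, none of them a member.

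**Figure D3:**
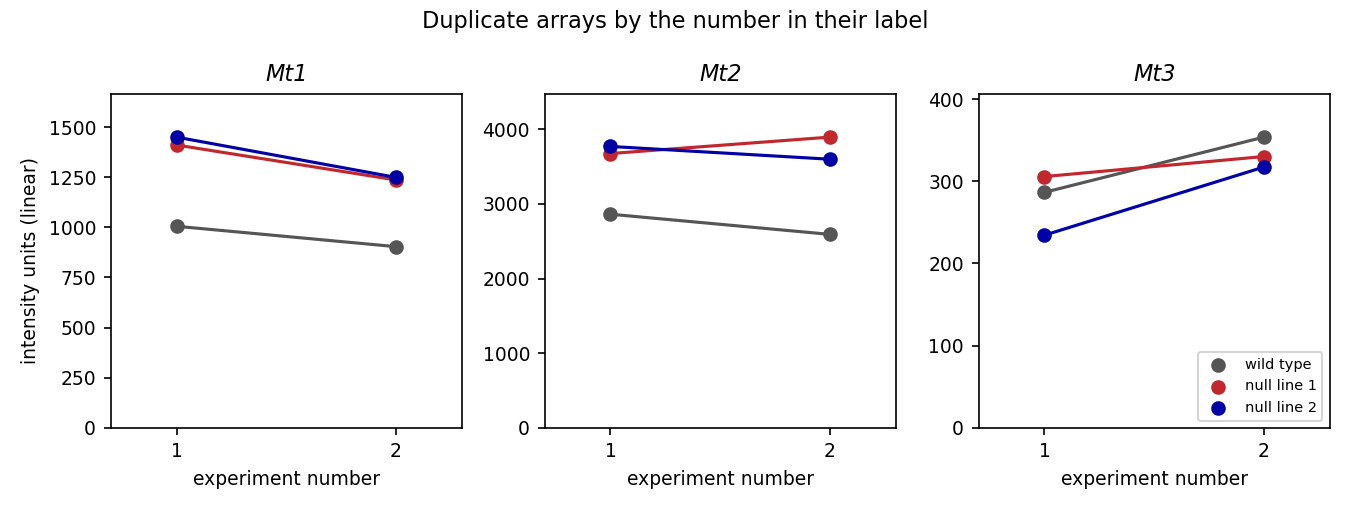
Intensity in linear units of Mt1, Mt2 and Mt3 on the experiment 1 and experiment 2 array of each line, with a line joining the arrays of a cell line. Mt1 is lower and Mt3 higher on the second array in all 3 lines, and the null lines lie above wild type for Mt1 and Mt2 on both.

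Along chromosome 8 the genes lie in the order Mt4, Mt3, Mt2, Mt1, so Mt3, which overlapped between the groups, sits between Mt4 and Mt2, which did not. Of the 10 annotated genes on each side of the cluster, 5 had a probe set and 4 were tested. None was called in the null average or between the null lines. Nudt21, a subunit of the pre-mRNA cleavage factor, lies on the Mt4 side and measured 297 ± 25 (SD, n = 2) in wild-type and 352 ± 32.3 (SD, n = 4) in null cells, a log2 difference of 0.24 ± 0.13 (SE, limma adjusted p = 0.486). Nup93, a nuclear pore protein and the nearest tested gene beyond Mt1, measured 152 ± 3.25 (SD, n = 2) and 175 ± 17.3 (SD, n = 4), a difference of 0.19 ± 0.11 (SE, limma adjusted p = 0.506). Both had all 4 null arrays above wild type, as did 11.0% of all tested probe sets. Gnao1, a G protein subunit, and Herpud1, of the endoplasmic reticulum, overlapped between the groups, with log2 differences of -0.10 and 0.13. Slc12a3, a kidney salt transporter, was below background on all arrays. The median difference of the 4 tested neighbours was 0.16, against -0.01 for all tested probe sets.

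**Figure D4:**
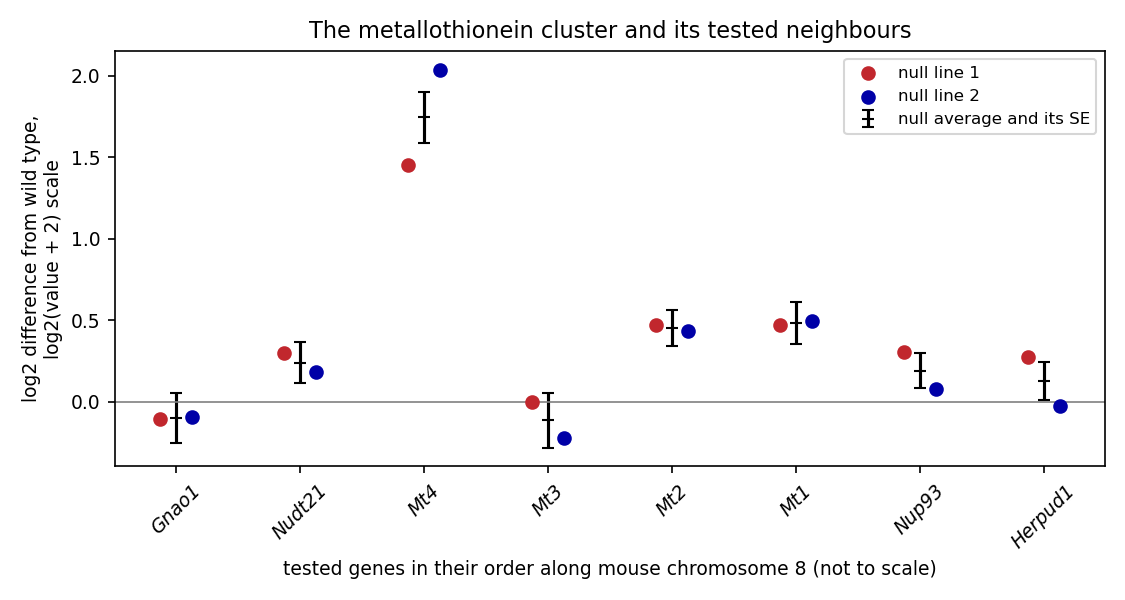
Log2 difference from wild type of each tested gene of the cluster and its neighbours, in their order along the chromosome and not to scale. Coloured points are the null lines, and the black mark is their average with its SE. Mt2 and Mt1 stand at 0.45 and 0.48 and Mt3 at -0.11. The fitted value drawn for Mt4 (1.75) depends on the pseudocount, as wild type was at background, and only its lower bound of 2.28-fold is measured.

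Other genes that carry zinc across membranes held no call. Of 10 zinc exporters of the Slc30 family, 5 had a probe set and 4 were tested. None was called in any contrast, 1 had a positive and 3 a negative difference, and the median was -0.16. Slc30a3, which loads zinc into synaptic vesicles, measured 375 ± 66.5 (SD, n = 2) in wild-type and 326 ± 46.1 (SD, n = 4) in null cells. Slc30a9 measured 63.5 ± 12.4 and 51.9 ± 7.05, and Slc30a5 66.4 ± 7.07 and 61.3 ± 7.25, and in all 3 the groups overlapped. Of 14 zinc importers of the Slc39 family, 7 had a probe set and 6 were tested. None was called, 1 had a positive and 5 a negative difference, and the median was -0.10.

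The importer with the smallest p was Slc39a1, which brings zinc in at the plasma membrane. It measured 137 and 134 units on the wild-type arrays, 121 and 126 in line 1, and 98.3 and 84.4 in line 2. Wild type, line 1 and line 2 thus stood in descending order without overlap. All 4 null arrays were below wild type for 12.0% of all tested probe sets, and the null lines did not overlap each other for 39.1%. The log2 difference was -0.35 ± 0.11 (SE, limma adjusted p = 0.302) in the null average and 0.43 ± 0.13 (SE, limma adjusted p = 0.627) between line 1 and line 2. Slc39a7, which releases zinc from internal stores, averaged 319 ± 44.3 (SD, n = 2) and 262 ± 41.8 (SD, n = 4) with overlap between the groups (limma adjusted p = 0.567). Slc39a6, another importer, also had all 4 null arrays below wild type, as did 12.0% of all tested probe sets, at 50.6 ± 1.06 (SD, n = 2) and 44.6 ± 2.58 (SD, n = 4), and did not pass (limma adjusted p = 0.571). Slc39a3 was near background, at 11.5 and 11.1 units in wild type and between 4.1 and 7 on the null arrays, and was not tested.

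Genes of the oxidative and electrophile stress response, part of which answers to metals, were mixed. Of 17 on the array 14 were tested, none was called, 10 had a positive and 4 a negative difference, and the median was 0.13. All 4 null arrays were above wild type for 4 of the 14, and for 11.0% of all tested probe sets. Nqo1, a quinone reductase, measured 29.2 ± 0.354 (SD, n = 2) in wild-type and 47.3 ± 5.93 (SD, n = 4) in null cells, a log2 difference of 0.65 ± 0.14 (SE, limma adjusted p = 0.15). Gsta4, a glutathione transferase, measured 273 ± 0.99 and 425 ± 55.7 (0.63 ± 0.12, SE, limma adjusted p = 0.132), and Gclm, a subunit of the enzyme that starts glutathione synthesis, 151 ± 9.05 and 194 ± 24.3 (0.35 ± 0.11, SE, limma adjusted p = 0.296). Hmox1, the haem oxygenase that metals and oxidants raise, measured 459 ± 43.3 and 450 ± 14.7. Its log2 difference was -0.03 ± 0.11 (SE, limma adjusted p = 0.952). The regulator Nfe2l2, which encodes NRF2, measured 254 ± 1.27 and 247 ± 22.3.

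**Figure D5:**
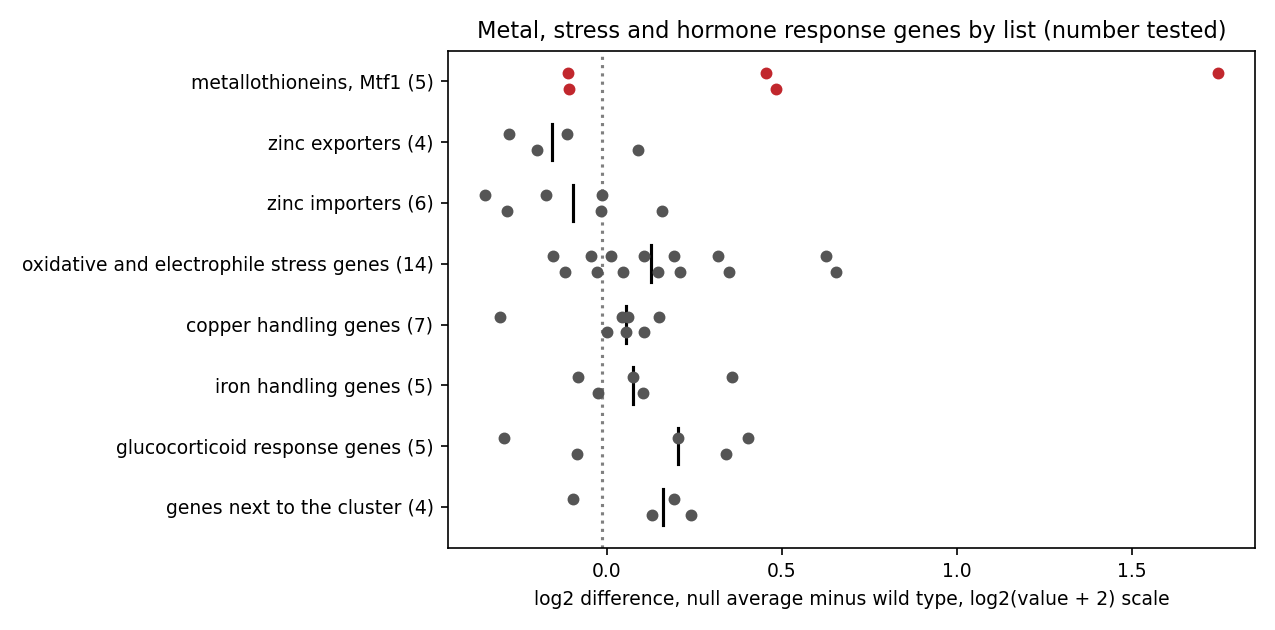
Log2 difference between the null average and wild type for each tested gene of the metal, stress and hormone response lists and of the cluster's neighbours, with the 5 tested members in red. Black bars are list medians and the dotted line is the median of all tested probe sets, -0.01. The zinc transporter medians are at -0.16 and -0.10. The rightmost point is Mt4, whose fitted value depends on the pseudocount, so its distance from the other genes has no exact size.

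The probe sets most like each member over the 6 arrays were named by Pearson's r of the log2(value + 2) values, as a description. For Mt1, Mt2 and Mt4 these coefficients rest largely on the step between wild-type and null arrays, which all their partners share. Closest to Mt1 were Tubb3 (161612_f_at, r = 0.987), Aoah (0.983) and Mrpl23 (0.982). Tubb3 at this probe set, whose suffix _f_at marks sequence shared within a gene family, measured 50 ± 3.11 (SD, n = 2) in wild-type and 79.1 ± 8.79 (SD, n = 4) in null cells. Closest to Mt2 were Eif3d (0.993), Rfc1 (0.991) and Blnk (0.988).

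Closest to Mt4 were Phlda2 (r = 0.998), Mrpl3 (0.992) and Hmgn5 (0.988). Phlda2, an imprinted growth-limiting gene, measured 268 ± 12.2 (SD, n = 2) in wild-type and 405 ± 32.5 (SD, n = 4) in null cells. Hmgn5, which encodes a nucleosome-binding protein, measured 187 ± 12.4 and 273 ± 24.1. Mt3 was most like Lgals2 (0.977), Col5a1 (0.974) and Ebp (0.961), and Mtf1 most like Acadl (0.992), Atp6v1g1 (0.983) and Gtf2ird2 (0.983). No pair of metallothioneins was among these nearest partners, a cut that leaves out high coefficients. Between members, r was 0.924 for Mt1 and Mt2, 0.891 for Mt1 and Mt4, and 0.894 for Mt2 and Mt4. These too rest largely on the step between wild-type and null arrays. With Mt3, r was -0.572 for Mt1, -0.367 for Mt2 and -0.423 for Mt4.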

How the data were processed

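Values are array intensities, 1 per probe set and array, that the authors deposited on a linear scale. The submitters' processing notes name MAS5 without a version. The 2% trimmed means of the arrays lay between 99.5 and 99.6, so no further scaling was applied. Genes were taken from the platform annotation, with symbols updated through a table of mouse genes (GRCm38.p6), which matched 10817 of 10833 probe sets listed with 1 gene. Tests left out 66 control probe sets.

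Values were tested as log2(value + 2), the pseudocount being the 10th percentile of all values, which understates changes of dim genes. The filter kept the 7453 probe sets with a mean at or above the 40th percentile (20.9 units). All 6 arrays entered 1 limma model (3.58.1, R 4.3.3) with a term for each line (3 residual and 3.17 prior degrees of freedom), with Benjamini-Hochberg adjustment over all of them. The experiment contrast added the experiment number to that model. The number of arrays limits the precision. The fit was tested on simulated data. Of a gene list, genes with several probe sets are represented by the brightest. Named genes are the members, the 3 probe sets most like each tested member, the cluster's neighbours and, per list, up to 3 genes with the smallest p. Hmox1, Nfe2l2, Slc39a3, Sgk1, Nr3c1, Tsc22d3, Zbtb16 and the marker genes were named after their values were seen. Members and lists were chosen with earlier results of these data known.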

Additional observations from a re-analysis of the deposited data

How the results depend on the processing

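Mt1 and Mt2 kept a positive difference from wild type in all 14 alternatives, between 0.41 and 0.56 for Mt1 and between 0.38 and 0.53 for Mt2 in the null average. Mt2 was called in 1 of them, with a spread that follows the signal (limma adjusted p = 0.0215). Mt4 was called in 7 of 13 alternatives, with differences between 0.95 (pseudocount 16) and 1.90. It failed without a filter (adjusted p = 0.143), with the replicate block (0.0549), and without either wild-type array or either line 1 array (between 0.0811 and 0.187). It could not be tested with the filter at the 60th percentile. The set was chosen on this contrast, the alternatives use the same arrays, and Mt4 passed the filter through its null arrays alone. The signs and calls of Mt1, Mt2 and Mt4 under these settings are therefore a description and no independent support.

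The calls over all probe sets moved more. In the null average they numbered 31, against 54 with pseudocount 16, 8 without the filter, 64 with the 60th percentile filter, 101 with a spread that follows the signal and 14 with the replicate block. Leaving out 1 array gave between 7 and 13 calls. For line 1 against wild type they numbered 10, against 5, 17 and 42 without the filter, with the stricter filter and with the trended spread, and between 4 and 9 with 1 array left out. For line 2 they numbered 19, against 31 with pseudocount 16 and 5, 59 and 92 under those same 3 settings, and between 0 and 10 with 1 array left out (limma, 804 at an unadjusted p under 0.05 where it was 0). Between the null lines there were 2, against 1 with pseudocount 16, the stricter filter or quantile normalization, and 0 without the filter, with the replicate block or without any 1 array (limma, between 339 and 933 at an unadjusted p under 0.05). For experiment 2 against experiment 1 there were 0, against 3 with pseudocount 16 and 6 with the stricter filter or the trended spread. The causes were not tested.

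Differences between the experiment 2 and experiment 1 arrays were only weakly shared between lines. Their correlations between lines, across probe sets, were 0.053, 0.0948 and 0.0732. As each line has 1 array per number, the replicate block changes no difference between lines, only its error. Signs turned for several values near 0. Mt3 was 0.0387 in the null average without the second wild-type array, and in line 1 0.0106 with median centring, 0.148 without the second wild-type array and 0.052 without the first line 1 array. Mtf1 in line 1 was -0.0178 and -0.1155 without those 2 arrays in turn. Between the null lines, Mt1 lay between -0.1347 and 0.0802 with 1 array left out (0.0679 without the second line 1 array, 0.0802 without the first line 2 array), and Mt2 lay between -0.0033 (without the second line 1 array) and 0.0806 with 1 array left out. Between experiments, Mt2 lay between -0.1049 and 0.0084 (the latter without either wild-type array). Mt4 lay between -0.1264 (without either wild-type array) and 0.2092, with -0.0207 without either line 1 array, and was -0.0229 with pseudocount 16 and -0.0454 with quantile normalization. Signal over background limits what can be said of Mt4 in wild-type cells and of Slc30a1.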

Other observations

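Genes that handle copper and iron, the other metals that meet metallothioneins or their regulators, and genes of the glucocorticoid response held no call. Of 7 copper handling genes tested, 5 had a positive and 2 a negative difference in the null average, with a median of 0.06. Ccs, the copper chaperone of superoxide dismutase and the gene with the smallest p, measured 72.1 ± 10.7 units (SD, n = 2) in wild-type and 58.3 ± 9.91 (SD, n = 4) in null cells (limma adjusted p = 0.455), with overlap. The chaperone Atox1 measured 606 ± 3.18 and 653 ± 35.8 (0.716), and the copper pump Atp7a 67.9 ± 4.17 and 77.7 ± 22.1 (0.855). Atox1 had all 4 null arrays above wild type, as did 11.0% of all tested probe sets. Of 5 iron handling genes tested, 3 had positive differences and the median was 0.08. Fth1, the ferritin heavy chain, also had all 4 null arrays above wild type, again as did 11.0% of all tested probe sets. It measured 954 ± 38.8 (SD, n = 2) and 1227 ± 98.1 (SD, n = 4), a log2 difference of 0.36 ± 0.12 (SE, limma adjusted p = 0.307). The next by p, Ireb2 and Slc11a2, overlapped between the groups, with differences of 0.10 and -0.08.

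Of 5 glucocorticoid response genes tested, 3 had positive differences and the median was 0.20. Fkbp5, a chaperone partner of the receptor, measured 205 ± 3.25 (SD, n = 2) in wild-type and 274 ± 41.6 (SD, n = 4) in null cells (limma adjusted p = 0.292), Sgk1, a kinase, 652 ± 10.8 and 752 ± 55.1 (0.485), and Cebpd, a transcription factor, 64.3 ± 6.51 and 82 ± 7.97 (0.392). These 3 had all null arrays above wild type, as did 11.0% of all tested probe sets. Dusp1, a phosphatase of the same list, had all 4 below it, as did 12.0% of all tested probe sets, at 607 ± 19.4 and 495 ± 15.2 (0.329). The receptor gene Nr3c1 was near background, at 7.6 units in wild-type and 9.6 in null cells, and was not tested. Tsc22d3 and Zbtb16, of the same list, were at or below background on all 6 arrays and were not tested either. The median therefore covers only the brighter part of the list.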
